A study of Homo sapiens with 6 samples.

Results

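The kinetochore and spindle checkpoint genes described here are 49 human genes whose proteins build the centromere and kinetochore, hold anaphase back until chromosomes are attached, or run the spindle and the exit from mitosis. They were chosen by gene symbol from a given list and make up 49 of the 26931 gene symbols in the expression tables. CASC5 of that list stands in the tables under its newer symbol KNL1, and the other 48 were found under the symbol given. All 49 had a level of at least 1 FPKM (fragments scaled to transcript length and library size) in every library and are among the 13043 genes tested.

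RNA came from TC32, an Ewing sarcoma cell line. Most Ewing tumours carry a fusion of the RNA-binding protein gene EWSR1 with the ETS transcription factor gene FLI1, and the study profiled knockdown aimed at that fusion through either partner. Cells received an siRNA against EWSR1 (siEWSR1), an siRNA against FLI1 (siFLI1) or the control siRNA (siNeg), and RNA was taken 48 h later, with 2 libraries per group and 6 in all. All groups are transfected cultures of 1 cell line, and nothing in the labels states that replicates came from separate cultures, so a p-value reflects the spread between these libraries alone, and that spread may be technical.

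A kinetochore is the protein assembly that ties a chromosome to spindle microtubules. Nucleosomes with the histone variant CENP-A mark the centromere, an inner network (CCAN) binds them, and an outer network (KMN) built on the inner one grips microtubules. Unattached kinetochores recruit checkpoint proteins that block CDC20, the activator of the anaphase-promoting complex, so that sister chromatids stay joined. Most of these genes are transcribed mainly in late S, G2 and M phase, and promoters of many G2/M genes hold a cell cycle homology region (CHR) and CCAAT boxes, which are bound by the MuvB-based complexes and NF-Y.

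With siEWSR1, 44 of the 49 genes were lower than with siNeg (89.8%), while 31% of all tested genes were lower, by limma on log2(FPKM + 0.5) with an adjusted p under 0.05. No member was higher with siEWSR1, against 33.2% of all tested genes, and 33 members (67.3%) were at least 2-fold lower, against 4.59% of all. With siFLI1, 43 members were lower (87.8%; 29.6% of all tested genes), none was higher (35.7% of all), and 33 were at least 2-fold lower (67.3%; 4.59% of all). The median log2 change of the members was -1.20 with siEWSR1 and -1.21 with siFLI1, and that of all tested genes 0.01 with siEWSR1 and 0.04 with siFLI1. Both comparisons use the same siNeg libraries. In RNA from whole cultures, fewer cells in mitosis and less RNA per cell cannot be told apart.

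EWSR1 and FLI1, the targeted genes, checked the labels. EWSR1 stood at 34.6 and 32.3 FPKM with siEWSR1 and 51.2 and 50.2 FPKM with siFLI1, against 46.5 and 47.2 FPKM with siNeg, a log2 change of -0.48 ± 0.06 (SE, adjusted p = 0.000444) for siEWSR1. FLI1 stood at 10.4 and 10.6 FPKM with siEWSR1 and 8.98 and 8.56 FPKM with siFLI1, against 10.9 FPKM in both siNeg libraries, a log2 change of -0.29 ± 0.06 (adjusted p = 0.00423) for siFLI1. Each gene was lower with its own siRNA, and neither passed the test with the siRNA against the other. FLI1 changed on the log2 scale by -0.04 ± 0.06 with siEWSR1 (limma, adjusted p = 0.534). EWSR1 changed by 0.11 ± 0.06 with siFLI1 (adjusted p = 0.11). A gene-level value adds reads of the normal gene to those of a fusion, so the level of a fusion is not seen apart. The deposited intervals imply 15159073 to 16298374 fragments per library. Of 10 Ewing sarcoma markers, all were detected, and their summed level was 520 to 636 FPKM with siEWSR1, 558 to 606 with siFLI1 and 1070 to 1080 with siNeg. None of 5 blood and 4 endothelial markers reached 1 FPKM in any library. Of 6 epithelial markers, 4 did, with a sum of 26.1 to 28.1 FPKM with siEWSR1, 30.0 to 30.5 with siFLI1 and 23.1 to 24.4 with siNeg. Most of that sum was KRT18, a keratin, at 25.6 and 23.7 FPKM with siEWSR1 and 27.3 and 26.8 with siFLI1, against 20.7 and 20.6 with siNeg. ESRP1, an epithelial splicing factor, stood at 2.41 and 1.24 FPKM with siNeg. It stood at 0.072 and 0.073 FPKM with siEWSR1 and 0.076 and 0.074 FPKM with siFLI1. The claudin CLDN4 stood at 0.22 and 0.25 FPKM with siNeg, at 1.39 and 1.40 with siEWSR1 and at 1.97 and 1.88 with siFLI1. Testing needed at least 1 FPKM in at least 2 libraries. ESRP1 met this only through siNeg and CLDN4 only through the other groups, so the filter itself favoured their directions. EPCAM and CDH1 stayed below 1 FPKM in all 6 libraries. The part of these marker lists in the results was not tested.

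The promoters of the members at either end of the range of change are given here. The RefSeq promoter table (build GRCh38.p14, 250 bases before to 50 bases from the gene start, 5′ to 3′ on the gene's strand) holds 37 of the 49 members. CENPH, CENPJ, CENPL, CENPM, BUB3, TTK, AURKA, BIRC5, KNTC1, KNL1, UBE2C and TPX2 are not in it. The first sequences belong to the 3 members with the lowest mean of both log2 changes among the 37, NUF2 (chr1:163321704-163322003, plus strand), NEK2 (chr1:211675572-211675871, minus strand) and ASPM (chr1:197146620-197146919, minus strand). The next belong to the 3 with the highest, MAD1L1 (chr7:2232896-2233195, minus strand), MIS12 (chr17:5486124-5486423, plus strand) and CENPB (chr20:3786691-3786990, minus strand). Capitals mark matches to the CHR core, searched as TTTGAA or TTCGAA, and to CCAAT, on either strand.
NUF2: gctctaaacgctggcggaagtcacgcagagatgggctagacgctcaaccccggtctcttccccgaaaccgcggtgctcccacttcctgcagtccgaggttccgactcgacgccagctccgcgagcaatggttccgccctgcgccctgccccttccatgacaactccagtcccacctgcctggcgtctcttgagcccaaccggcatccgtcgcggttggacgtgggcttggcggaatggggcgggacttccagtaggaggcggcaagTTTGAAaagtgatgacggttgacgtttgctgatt
NEK2: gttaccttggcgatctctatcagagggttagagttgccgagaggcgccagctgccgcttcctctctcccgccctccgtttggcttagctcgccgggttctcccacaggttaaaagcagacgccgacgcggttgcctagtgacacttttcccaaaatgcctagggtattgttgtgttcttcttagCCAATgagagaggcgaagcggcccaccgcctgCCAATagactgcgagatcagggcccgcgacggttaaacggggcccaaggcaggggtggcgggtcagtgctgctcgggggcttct
ASPM: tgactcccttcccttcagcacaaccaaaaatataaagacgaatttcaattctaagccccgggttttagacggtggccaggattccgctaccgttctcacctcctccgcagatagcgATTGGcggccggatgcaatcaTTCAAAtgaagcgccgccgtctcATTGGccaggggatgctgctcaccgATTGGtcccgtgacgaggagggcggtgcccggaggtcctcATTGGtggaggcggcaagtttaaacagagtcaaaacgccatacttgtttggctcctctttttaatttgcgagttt
MAD1L1: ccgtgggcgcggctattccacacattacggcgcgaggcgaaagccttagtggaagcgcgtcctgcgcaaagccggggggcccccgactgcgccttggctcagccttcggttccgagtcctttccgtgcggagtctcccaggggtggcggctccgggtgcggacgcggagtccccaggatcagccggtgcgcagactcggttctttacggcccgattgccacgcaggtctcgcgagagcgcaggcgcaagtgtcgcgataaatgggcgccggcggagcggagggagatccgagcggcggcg
MIS12: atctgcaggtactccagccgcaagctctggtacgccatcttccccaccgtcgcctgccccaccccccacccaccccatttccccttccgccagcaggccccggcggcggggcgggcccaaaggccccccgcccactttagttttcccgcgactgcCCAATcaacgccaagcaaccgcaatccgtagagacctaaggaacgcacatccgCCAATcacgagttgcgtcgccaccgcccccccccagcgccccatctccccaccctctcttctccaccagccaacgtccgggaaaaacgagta
CENPB: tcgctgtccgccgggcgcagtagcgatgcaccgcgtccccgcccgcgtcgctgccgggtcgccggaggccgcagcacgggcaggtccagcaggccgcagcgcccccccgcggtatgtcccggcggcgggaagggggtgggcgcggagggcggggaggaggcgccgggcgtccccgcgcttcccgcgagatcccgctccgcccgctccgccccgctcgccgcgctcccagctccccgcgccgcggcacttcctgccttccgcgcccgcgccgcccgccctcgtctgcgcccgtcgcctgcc
NUF2 held a CHR core 16 bases after the gene start and no CCAAT box. NEK2 held 2 CCAAT boxes and no CHR core, and ASPM held 4 CCAAT boxes and a CHR core. Neither element was thus in all 3 of the lowest members. MAD1L1 and CENPB held neither, and MIS12 held 2 CCAAT boxes and its level did not pass the test with either siRNA.

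A CHR core lay in 20 of the 37 member promoters (54.1%), against 16.6% of all 27305 promoters in the table and 11.2% of the 9668 tested genes that have an entry. Of the 20 member promoters with a match, 17 (85%) had it starting within 50 bases of the gene start, against 30.4% of all promoters with a match. CCAAT lay in 23 of the 37 (62.2%), against 35.7% of all promoters and 37.1% of those of tested genes. Both stood together in 15 of the 37 (40.5%), against 4.8% of tested genes. The share of E2F-type matches (TTTGGCG or TTTCCCG or TTTCGCG on either strand) was 10.8% of members, 7.28% of all promoters and 11.9% of those of tested genes. A GGAA with another GGAA directly after it (an ETS-type tandem) was in 1 member promoter, that of CENPP (2.7%). It was in 3.58% of all promoters and 3.29% of those of tested genes. Single GGAA sites and sites outside the window were not searched, so this count does not show whether EWS-FLI1 binds near the members. These matches are counts of letters in a fixed window and not tests of binding, and single letters can be shared between a CHR core and a CCAAT box next to it.

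The passenger complex, centrosome and spindle, and anaphase groups gave 4 genes for a closer view. Stretches of 150 bases, 120 before and 30 from the gene start, show the spacing of both elements in them. They were picked after the matches were seen, from CDCA8 (chr1:37692396-37692545, plus strand), PLK1 (chr16:23678769-23678918, plus strand), INCENP (chr11:62123891-62124040, plus strand) and ESPL1 (chr12:53268179-53268328, plus strand), with capitals as above.
CDCA8: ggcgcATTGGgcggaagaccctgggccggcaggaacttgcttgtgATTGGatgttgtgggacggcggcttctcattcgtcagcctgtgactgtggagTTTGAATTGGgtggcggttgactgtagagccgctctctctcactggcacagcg
PLK1: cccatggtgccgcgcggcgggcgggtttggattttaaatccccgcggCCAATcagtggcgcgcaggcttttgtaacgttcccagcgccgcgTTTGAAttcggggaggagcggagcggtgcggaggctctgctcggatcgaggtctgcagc
INCENP: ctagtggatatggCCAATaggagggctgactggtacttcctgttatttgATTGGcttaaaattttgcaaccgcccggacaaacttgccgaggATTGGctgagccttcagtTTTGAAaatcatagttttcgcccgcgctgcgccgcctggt
ESPL1: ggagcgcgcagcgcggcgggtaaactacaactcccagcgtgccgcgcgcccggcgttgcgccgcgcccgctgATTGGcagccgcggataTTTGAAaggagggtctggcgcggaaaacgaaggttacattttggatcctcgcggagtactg
In each of them the CHR core starts 10 to 31 bases before the gene start, and at least 1 CCAAT box lies further upstream. In CDCA8 the CHR core shares a base with another CCAAT box.

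All 20 members with a CHR core in this window were lower with siEWSR1 and with siFLI1, and so were 12 (siEWSR1) and 11 (siFLI1) of the 17 without. The median log2 change of those with a CHR core was -1.25 with siEWSR1 and -1.30 with siFLI1, and that of those without -1.05 (siEWSR1) and -0.99 (siFLI1). The 15 members with both elements were all lower, with median log2 changes of -1.27 (siEWSR1) and -1.33 (siFLI1). Of the 9 with neither, 5 were lower with siEWSR1 and 4 with siFLI1, with median log2 changes of -0.29 (siEWSR1) and -0.21 (siFLI1). CENPE, with neither match in its window, was among the genes that fell most. Of the 23 members with CCAAT, 22 were lower with either siRNA, with median log2 changes of -1.28 (siEWSR1) and -1.33 (siFLI1), and of the 14 without, 10 were lower with siEWSR1 (median -0.78) and 9 with siFLI1 (-0.72). Over all 9668 tested genes with a promoter, those with a CHR core anywhere in the window had median log2 changes of -0.12 (siEWSR1) and -0.08 (siFLI1), and those with CCAAT -0.03 (siEWSR1) and 0.00 (siFLI1). Of these tested genes, 321 had a CHR core starting within 50 bases of the gene start, and 176 of these were lower with siEWSR1 (median log2 change -0.37) and 184 with siFLI1 (-0.38), beside 3064 (siEWSR1) and 2934 (siFLI1) of the 9668. The 321 are a narrower set than the 20 members, whose CHR core can lie anywhere in the window. For the 1084 tested genes with a core anywhere in it, the count lower was not taken. No test was made of a motif against the changes.

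**Figure D1:**
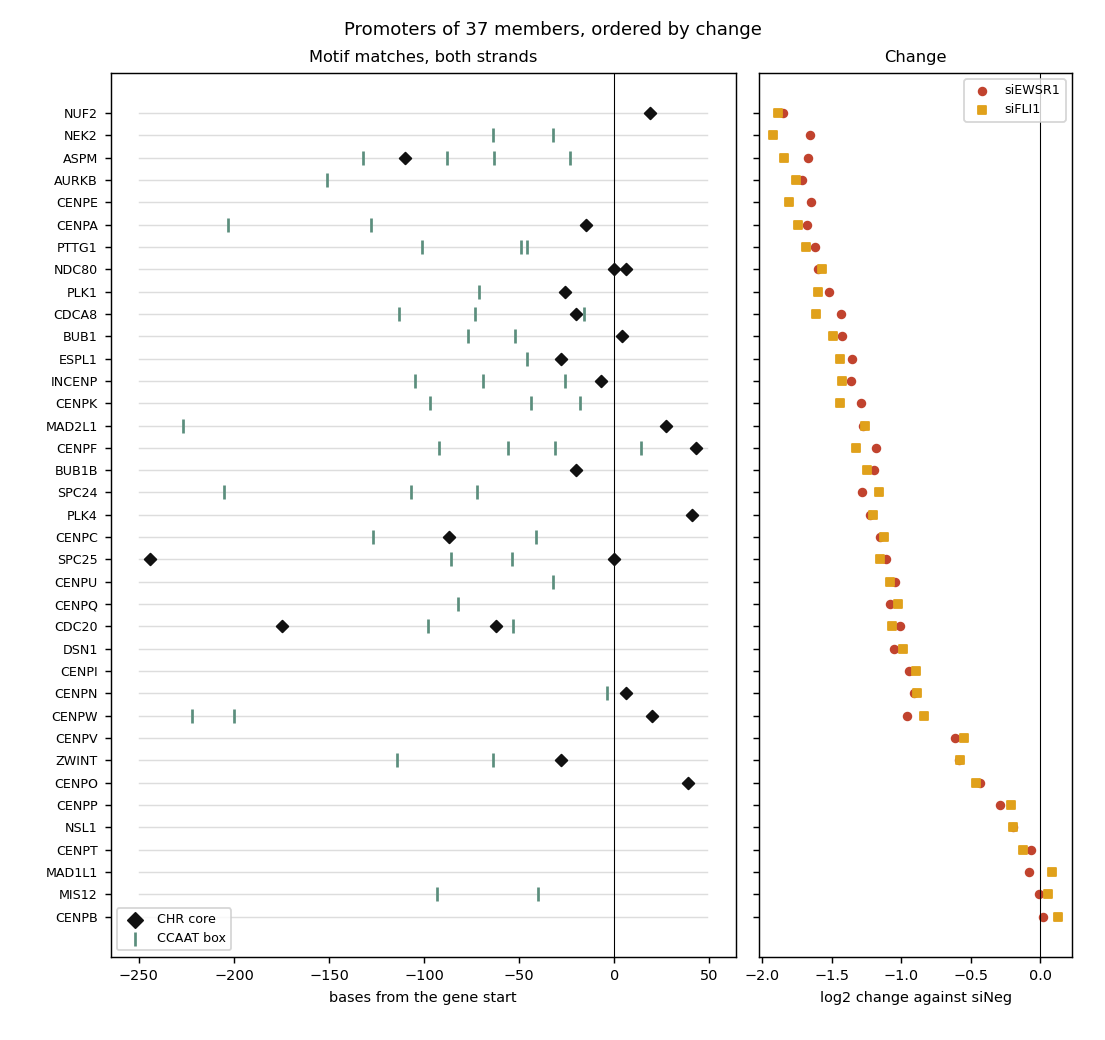
Left, positions of CHR core (diamonds) and CCAAT (bars) matches on either strand, in bases from the gene start, in the 37 member promoters, ordered by the mean of both log2 changes. Right, the log2 change of the same genes with siEWSR1 (circles) and siFLI1 (squares) against siNeg. All 20 genes with a CHR core lie left of 0 in the right panel, and 17 of them have it within 50 bases of the gene start.

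Levels differed over a wide range within the set. In siNeg libraries the highest mean was that of UBE2C, the E2 enzyme that works with the anaphase-promoting complex, at 301.4 FPKM, then PTTG1 (securin) at 184.1 and PLK1 at 135.7 FPKM. The lowest were CENPC at 5.87, CENPJ at 5.79 and CENPP at 2.54 FPKM. The summed level of the 49 genes was 1055 and 860.6 FPKM with siEWSR1 and 978.2 and 911.7 FPKM with siFLI1, against 2418 and 2318 FPKM with siNeg. The sum in every siRNA library against a fusion partner was below that in both siNeg libraries. Of the 24 members with the higher siNeg levels, 24 were lower with either siRNA, with median log2 changes of -1.48 (siEWSR1) and -1.55 (siFLI1). Of the other 25, 20 were lower with siEWSR1 and 19 with siFLI1, with median log2 changes of -1.05 (siEWSR1) and -1.02 (siFLI1). The siNeg level that made the split is also the reference of the change, so part of this difference can be built in. The share of all tested genes at like levels was not taken, and the difference was not tested.

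**Figure D2:**
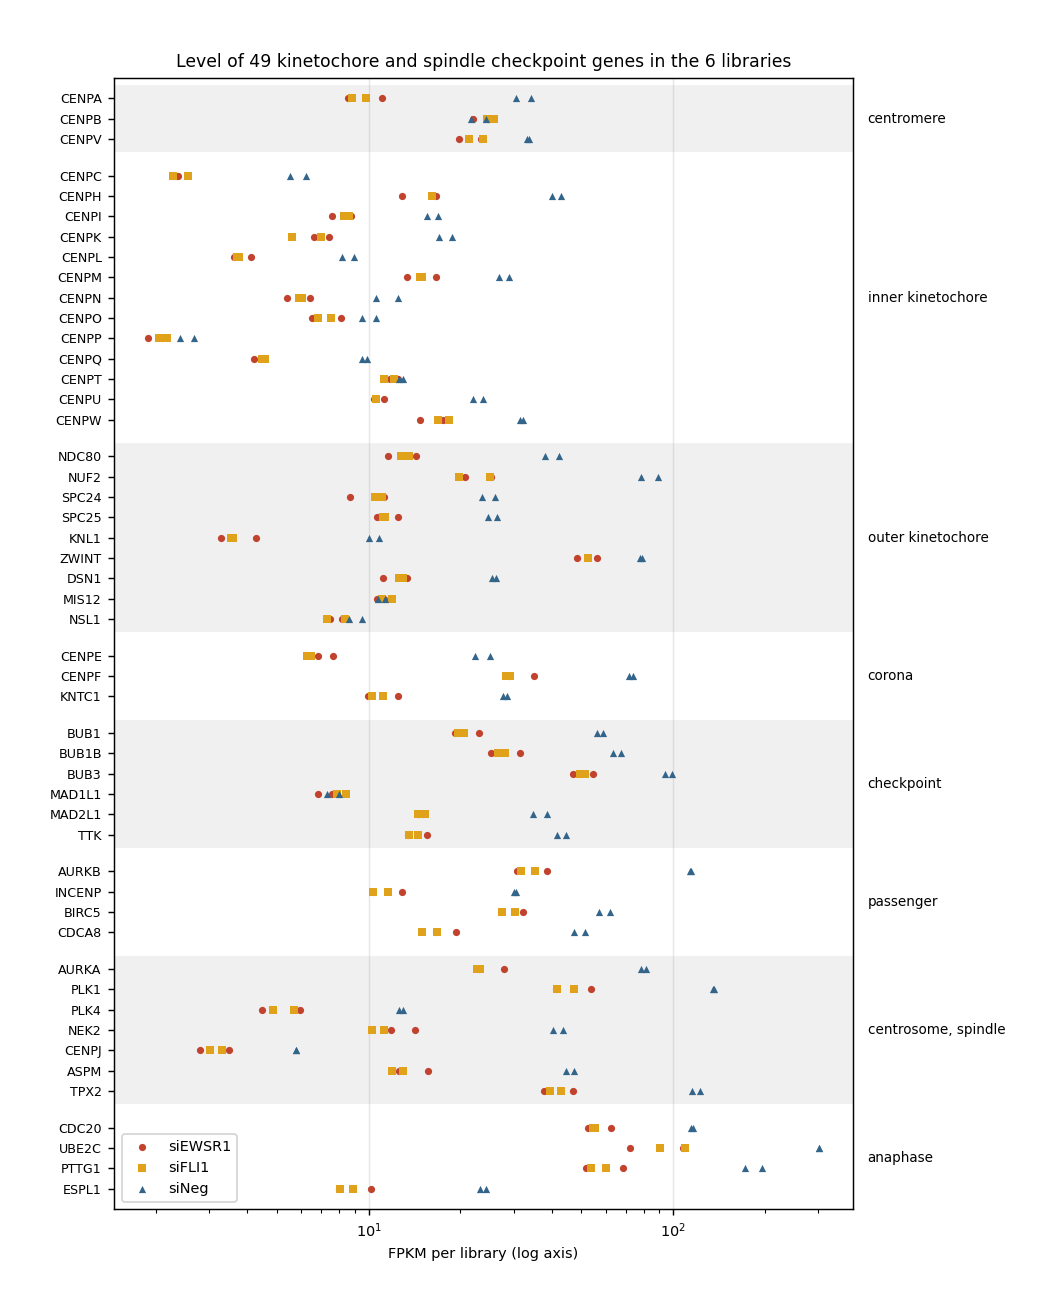
FPKM (log axis) of the 49 genes, in rows by role, in each of the 6 libraries, with siEWSR1 as circles, siFLI1 as squares and siNeg as triangles. For most genes the siNeg points lie to the right of all 4 others, while those of CENPB, MIS12 and MAD1L1 overlap with siEWSR1 points.

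The counts by role, here and in the paragraphs up to the anaphase genes, come from small groups. Of all tested genes, 31% were lower with siEWSR1 and 29.6% with siFLI1, and 4.59% were at least 2-fold lower with either siRNA. At the centromere, 2 of 3 genes were lower with either siRNA, CENPA and CENPV, with median log2 changes of -0.62 (siEWSR1) and -0.55 (siFLI1), and CENPB did not pass the test. CENPA, the histone H3 variant that marks centromeric nucleosomes (hg19, chromosome 2, 27008882 to 27017455), stood at 11.1 and 8.58 FPKM with siEWSR1 and 9.78 and 8.84 FPKM with siFLI1, against 34.2 and 30.4 FPKM with siNeg. Both siNeg libraries were above all others, and the log2 change was -1.68 ± 0.13 with siEWSR1 (SE, adjusted p = 8.14e-05) and -1.74 ± 0.13 with siFLI1 (adjusted p = 6.12e-05). CENPB, which binds a motif in alpha-satellite DNA (chromosome 20, 3764498 to 3767337), stood at 24.7 and 22.0 FPKM with siEWSR1 and 24.4 and 25.8 FPKM with siFLI1, against 21.7 and 24.4 FPKM with siNeg. Its siEWSR1 and siNeg values overlapped, and its log2 change was 0.02 ± 0.08 with siEWSR1 (adjusted p = 0.861) and 0.12 ± 0.08 with siFLI1 (adjusted p = 0.23). CENPV, a protein of centromeric chromatin and the spindle midzone, fell, at a log2 change of -0.62 with siEWSR1 and -0.55 with siFLI1.

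In the inner kinetochore network, 12 of 13 genes were lower with siEWSR1 and 11 with siFLI1, 6 of them at least 2-fold with either siRNA, with median log2 changes of -0.96 (siEWSR1) and -0.90 (siFLI1). CENPH, of the CENP-H/I/K/M subcomplex (chromosome 5, 68485375 to 68506184), stood at 16.7 and 12.8 FPKM with siEWSR1 and 16.2 FPKM in both siFLI1 libraries, against 42.7 and 40.1 FPKM with siNeg. Its log2 change of -1.47 ± 0.12 was the lowest of the network with siEWSR1 (adjusted p = 9.75e-05), and with siFLI1 it was -1.33 ± 0.12 (adjusted p = 0.000126). CENPK of the same subcomplex stood at 7.42 and 6.61 FPKM with siEWSR1 and 6.96 and 5.60 FPKM with siFLI1, against 18.7 and 17.01 FPKM with siNeg. It was the lowest with siFLI1, with a log2 change of -1.44 ± 0.11 (adjusted p = 8.37e-05), and changed on the log2 scale by -1.29 ± 0.11 with siEWSR1. CENPI fell, at a log2 change of -0.95 with siEWSR1 and -0.90 with siFLI1 and CENPM at -0.88 with siEWSR1 and -0.89 with siFLI1. CENPC, the scaffold between CENP-A nucleosomes and the outer network, fell, at a log2 change of -1.16 with siEWSR1 and -1.13 with siFLI1. CENPL fell, at a log2 change of -1.06 with siEWSR1 and -1.10 with siFLI1, and CENPN, its partner in reading CENP-A nucleosomes, at -0.91 with siEWSR1 and -0.89 with siFLI1.

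The subunits of the CENP-O/P/Q/U subcomplex had log2 changes of unequal size, a difference that was not tested. CENPQ fell, at a log2 change of -1.08 with siEWSR1 and -1.02 with siFLI1, and CENPU at -1.05 with siEWSR1 and -1.08 with siFLI1, while CENPO was lower by the test, at a log2 change of -0.44 with siEWSR1 (adjusted p = 0.0144) and -0.46 with siFLI1 (adjusted p = 0.0115). The CENPO call was lost with siEWSR1 without siNeg replicate 2 (adjusted p = 0.0854) or siEWSR1 replicate 2 (0.051), and with siFLI1 without siNeg replicate 2 (0.0713) or siFLI1 replicate 2 (0.0716). CENPP, the gene with the lowest level of the 49 (chromosome 9, 95087750 to 95377437), stood at 2.09 and 1.89 FPKM with siEWSR1 and 2.06 and 2.19 FPKM with siFLI1, against 2.66 and 2.41 FPKM with siNeg. The groups did not overlap, but the gap was small, with a log2 change of -0.29 ± 0.09 with siEWSR1 (adjusted p = 0.0307) and -0.21 ± 0.09 with siFLI1 (adjusted p = 0.0804). The siEWSR1 call of CENPP was lost without siNeg replicate 1 (adjusted p = 0.157), siNeg replicate 2 (0.0533) or siEWSR1 replicate 2 (0.127), and with no filter on low values (0.0626).

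CENPT and CENPW form a histone-fold pair that links the inner network to NDC80. CENPT (chromosome 16, 67862060 to 67881361) stood at 12.5 and 11.8 FPKM with siEWSR1 and 12.1 and 11.2 FPKM with siFLI1, against 12.95 and 12.6 FPKM with siNeg. Its values lay close together in all 6 libraries, with log2 changes of -0.07 ± 0.07 with siEWSR1 (adjusted p = 0.374) and -0.13 ± 0.07 with siFLI1 (adjusted p = 0.137). CENPW fell, at a log2 change of -0.96 with siEWSR1 and -0.83 with siFLI1. CENPP and CENPT overlap other genes on the chromosome, as do 7 more of the 49 members (CENPN, CENPO, CENPU, BUB1, BUB1B, MAD1L1 and PLK1), and since strand use is not given, reads of overlapping genes cannot be told apart.

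In the outer kinetochore, 7 of 9 genes were lower with either siRNA, with median log2 changes of -1.11 with siEWSR1 and -1.15 with siFLI1, and the 2 others both belong to the MIS12 complex. NUF2, of the NDC80 complex that holds microtubules (chromosome 1, 163291723 to 163325553), stood at 25.2 and 20.7 FPKM with siEWSR1 and 25.0 and 19.9 FPKM with siFLI1, against 89.5 and 78.3 FPKM with siNeg. Its log2 change was -1.85 ± 0.14 with siEWSR1 (adjusted p = 8.07e-05), the lowest of the 49, and -1.89 ± 0.14 with siFLI1 (adjusted p = 6.52e-05). The other subunits of its complex also fell, NDC80 at a log2 change of -1.60 with siEWSR1 and -1.57 with siFLI1, SPC24 at -1.28 with siEWSR1 and -1.16 with siFLI1, and SPC25 at -1.11 with siEWSR1 and -1.15 with siFLI1. KNL1, the docking platform for checkpoint kinases and BUB proteins, fell, at a log2 change of -1.36 with siEWSR1 and -1.43 with siFLI1, and its partner ZWINT at -0.59 with siEWSR1 and -0.58 with siFLI1.

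MIS12, which joins the outer network to CENP-C (chromosome 17, 5389694 to 5394130), stood at 11.3 and 10.7 FPKM with siEWSR1 and 11.9 and 11.05 FPKM with siFLI1, against 11.3 and 10.7 FPKM with siNeg. The groups overlapped, with log2 changes of -0.01 ± 0.07 with siEWSR1 (adjusted p = 0.921) and 0.06 ± 0.07 with siFLI1 (adjusted p = 0.49). NSL1, a subunit of the same complex, stood at 7.49 and 8.20 FPKM with siEWSR1 and 8.40 and 7.33 FPKM with siFLI1, against 8.63 and 9.54 FPKM with siNeg. Its siNeg values were above the others, but its log2 changes of -0.20 ± 0.09 with siEWSR1 (adjusted p = 0.0981) and -0.20 ± 0.09 with siFLI1 (adjusted p = 0.0994) were not past the threshold. DSN1, also of this complex, fell, at a log2 change of -1.05 with siEWSR1 and -0.99 with siFLI1.

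The corona, the outermost layer of an unattached kinetochore, was lower in all 3 members with either siRNA. CENPE, a kinesin that carries chromosomes to the spindle equator (chromosome 4, 104026963 to 104119566), stood at 7.62 and 6.82 FPKM with siEWSR1 and 6.496 and 6.30 FPKM with siFLI1, against 25.0 and 22.4 FPKM with siNeg. Its log2 changes were -1.65 ± 0.08 with siEWSR1 (adjusted p = 1.84e-05) and -1.81 ± 0.08 with siFLI1 (adjusted p = 1.09e-05). CENPF, a large coiled-coil protein whose RNA and protein peak in G2 and M phase, stood at 34.9 and 29.0 FPKM with siEWSR1 and 29.1 and 28.3 FPKM with siFLI1, against 74.0 and 71.6 FPKM with siNeg. It changed on the log2 scale by -1.18 ± 0.09 with siEWSR1 (adjusted p = 8.34e-05) and -1.33 ± 0.09 with siFLI1 (adjusted p = 4.53e-05). KNTC1 (ROD), which brings dynein and the MAD proteins to kinetochores, fell, at a log2 change of -1.29 with siEWSR1 and -1.35 with siFLI1.

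Of the 6 checkpoint genes, 5 were lower with either siRNA, with median log2 changes of -1.24 (siEWSR1) and -1.26 (siFLI1). TTK, the MPS1 kinase that starts checkpoint signalling (chromosome 6, 80714322 to 80752244), stood at 15.6 and 13.5 FPKM with siEWSR1 and 13.6 and 14.5 FPKM with siFLI1, against 44.4 and 41.5 FPKM with siNeg. It was the lowest of this group, with log2 changes of -1.54 ± 0.08 with siEWSR1 (adjusted p = 2.54e-05) and -1.58 ± 0.08 with siFLI1 (adjusted p = 1.83e-05). The kinase BUB1 fell, at a log2 change of -1.43 with siEWSR1 and -1.49 with siFLI1, and so did BUB1B (BUBR1), at -1.20 with siEWSR1 and -1.25 with siFLI1, and MAD2L1 (MAD2), at -1.27 with siEWSR1 and -1.26 with siFLI1, both parts of the complex that blocks CDC20. BUB3, a further part of it, fell, at a log2 change of -0.93 with siEWSR1 and -0.93 with siFLI1. MAD1L1 (MAD1), which holds MAD2 at kinetochores (chromosome 7, 1855428 to 2272583), stood at 7.60 and 6.85 FPKM with siEWSR1 and 7.88 and 8.41 FPKM with siFLI1, against 7.33 and 8.01 FPKM with siNeg. Its groups overlapped with siNeg, and its log2 changes were -0.08 ± 0.08 with siEWSR1 (adjusted p = 0.404) and 0.08 ± 0.08 with siFLI1 (adjusted p = 0.394).

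All 4 genes of the chromosomal passenger complex, which corrects wrong attachments, were lower with either siRNA. AURKB, its kinase (chromosome 17, 8108049 to 8113944), stood at 38.5 and 30.7 FPKM with siEWSR1 and 35.3 and 31.6 FPKM with siFLI1, against 113.8 and 114.5 FPKM with siNeg. It changed on the log2 scale by -1.72 ± 0.11 with siEWSR1 (adjusted p = 4.54e-05) and -1.76 ± 0.11 with siFLI1 (adjusted p = 3.35e-05). BIRC5 (survivin), which brings the complex to centromeres, stood at 32.2 and 27.2 FPKM with siEWSR1 and 30.3 and 27.4 FPKM with siFLI1, against 62.0 and 57.2 FPKM with siNeg. It fell least of the 4, at a log2 change of -0.997 ± 0.10 with siEWSR1 (adjusted p = 0.000229) and -1.04 ± 0.10 with siFLI1 (adjusted p = 0.000172). The scaffold INCENP fell, at a log2 change of -1.36 with siEWSR1 and -1.43 with siFLI1, and CDCA8 (borealin) at -1.43 with siEWSR1 and -1.61 with siFLI1.

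All 7 centrosome and spindle genes were lower, with median log2 changes of -1.52 with siEWSR1 and -1.60 with siFLI1. ASPM, a spindle pole protein (chromosome 1, 197053257 to 197115824), stood at 15.7 and 12.6 FPKM with siEWSR1 and 12.9 and 11.97 FPKM with siFLI1, against 47.4 and 44.4 FPKM with siNeg. Its log2 changes were -1.67 ± 0.11 with siEWSR1 (adjusted p = 4.36e-05) and -1.84 ± 0.11 with siFLI1 (adjusted p = 2.43e-05). NEK2, a centrosome kinase (chromosome 1, 211831599 to 211848972), stood at 14.2 and 11.8 FPKM with siEWSR1 and 10.2 and 11.2 FPKM with siFLI1, against 43.5 and 40.5 FPKM with siNeg. With siFLI1 it fell most of the 49, at a log2 change of -1.92 ± 0.10 (adjusted p = 1.61e-05), and with siEWSR1 at -1.66 ± 0.10 (adjusted p = 3.24e-05). The kinase AURKA fell, at a log2 change of -1.63 with siEWSR1 and -1.78 with siFLI1, PLK1 at -1.52 with siEWSR1 and -1.60 with siFLI1, and TPX2, the activator of Aurora A, at -1.49 with siEWSR1 and -1.52 with siFLI1. PLK4, the kinase that starts centriole duplication, fell, at a log2 change of -1.23 with siEWSR1 and -1.21 with siFLI1. CENPJ (CPAP), which sets centriole length, stood at 3.47 and 2.80 FPKM with siEWSR1 and 3.31 and 3.005 FPKM with siFLI1, against 5.80 and 5.77 FPKM with siNeg. It fell least of these genes, at a log2 change of -0.80 ± 0.10 with siEWSR1 (adjusted p = 0.000782) and -0.78 ± 0.10 with siFLI1 (adjusted p = 0.00078).

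The 4 anaphase genes were all at least 2-fold lower with either siRNA. UBE2C (chromosome 20, 44441215 to 44445596) stood at 107.8 and 72.2 FPKM with siEWSR1 and 109.5 and 90.6 FPKM with siFLI1, against 301.9 and 300.8 FPKM with siNeg. Its siEWSR1 replicates lay further apart than those of the other members, and its log2 changes of -1.77 ± 0.18 with siEWSR1 (adjusted p = 0.000293) and -1.59 ± 0.18 with siFLI1 (adjusted p = 0.000409) had the highest standard error of the 49. PTTG1, the securin that holds separase inactive, stood at 68.4 and 51.6 FPKM with siEWSR1 and 60.1 and 53.6 FPKM with siFLI1, against 195.5 and 172.8 FPKM with siNeg. It changed on the log2 scale by -1.62 ± 0.14 with siEWSR1 (adjusted p = 0.000134) and -1.69 ± 0.14 with siFLI1 (adjusted p = 0.000101), while ESPL1, separase itself, fell, at a log2 change of -1.35 with siEWSR1 and -1.44 with siFLI1. CDC20, the target of the checkpoint, stood at 62.6 and 52.4 FPKM with siEWSR1 and 55.4 and 54.6 FPKM with siFLI1, against 116.6 and 114.8 FPKM with siNeg. It fell, at a log2 change of -1.01 ± 0.09 with siEWSR1 (adjusted p = 0.000127) and -1.07 ± 0.09 with siFLI1 (adjusted p = 8.98e-05).

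**Figure D3:**
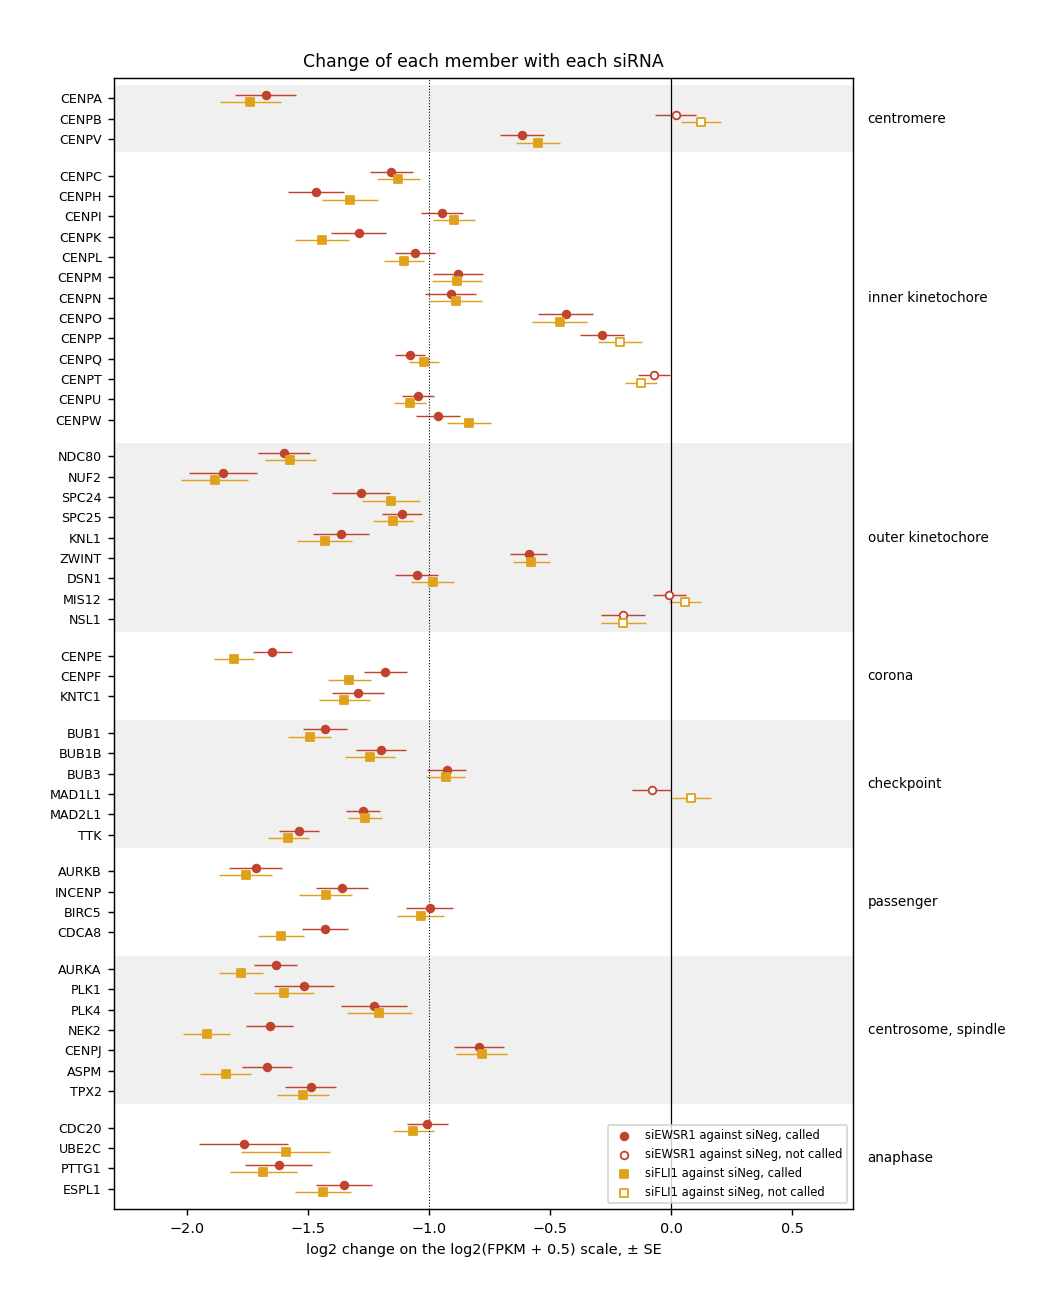
Log2 change against siNeg, on the log2(FPKM + 0.5) scale, of the 49 genes by role, with siEWSR1 as circles and siFLI1 as squares, bars of ± 1 SE and open symbols for genes not past an adjusted p of 0.05. The dotted line marks a 2-fold fall. Of the 49 genes, 33 lie at or left of it with siEWSR1, and the open symbols are CENPB, CENPT, MIS12, NSL1 and MAD1L1 with both siRNAs and CENPP with siFLI1.

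FPKM is scaled to length, so partner levels within a library are given as ratios. Length scaling does not remove other differences between genes, such as reads of overlapping genes. Pairs were chosen after the values were seen, and with 2 libraries against 2 the smallest two-sided p of an exact permutation test is 0.333, so ratios are given without a test. MAD2L1 stood at 1.91 and 2.21 times MAD1L1 with siEWSR1 and 1.85 and 1.82 times with siFLI1, against 5.27 and 4.32 times with siNeg. CENPA stood at 0.449 and 0.39 times CENPB with siEWSR1 and 0.4 and 0.343 times with siFLI1, against 1.57 and 1.25 times with siNeg. In FPKM the order of that pair turned, with CENPA above CENPB in both siNeg libraries and below it in the 4 others. DSN1 stood at 1.19 and 1.05 times MIS12 with siEWSR1 and 1.09 and 1.14 times with siFLI1, against 2.32 and 2.37 times with siNeg. CENPW stood at 1.4 and 1.25 times CENPT with siEWSR1 and 1.52 and 1.51 times with siFLI1, against 2.43 and 2.55 times with siNeg. These pairs each join a gene that fell with a gene that did not pass the threshold, so the lower ratios restate the changes given above. CENPQ over CENPP was 2.02 and 2.34 with siEWSR1 and 2.22 and 2.05 with siFLI1, against 3.57 and 4.09 with siNeg. DSN1 over NSL1 was 1.78 and 1.36 with siEWSR1 and 1.54 and 1.72 with siFLI1, against 3.04 and 2.66 with siNeg.

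In other pairs both genes fell with both siRNAs. SPC25 over SPC24, partners in the inner end of the NDC80 complex, was 1.11 and 1.23 with siEWSR1 and 1.01 and 1.08 with siFLI1, against 1.12 and 0.948 with siNeg, and these ranges overlapped. NUF2 over NDC80, partners at its microtubule end, was 1.76 and 1.79 with siEWSR1 and 1.85 and 1.56 with siFLI1, against 2.12 and 2.06 with siNeg. AURKB over INCENP was 3 and 2.98 with siEWSR1 and 3.05 in both siFLI1 libraries, against 3.79 and 3.74 with siNeg. PTTG1 over ESPL1 was 6.72 and 6.46 with siEWSR1 and 6.74 and 6.66 with siFLI1, against 8.41 and 7.08 with siNeg. BUB1 over BUB3 was 0.422 and 0.409 with siEWSR1 and 0.4 and 0.398 with siFLI1, against 0.592 and 0.598 with siNeg. CENPU over CENPO was 1.39 and 1.59 with siEWSR1 and 1.41 and 1.55 with siFLI1, against 2.49 and 2.08 with siNeg. All of these but SPC25 over SPC24 were below both siNeg values in each of the 4 libraries. In those pairs the gene on top was the one that fell more, so the lower ratios restate the changes given above. Such separation was not counted for other pairs of genes.

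**Figure D4:**
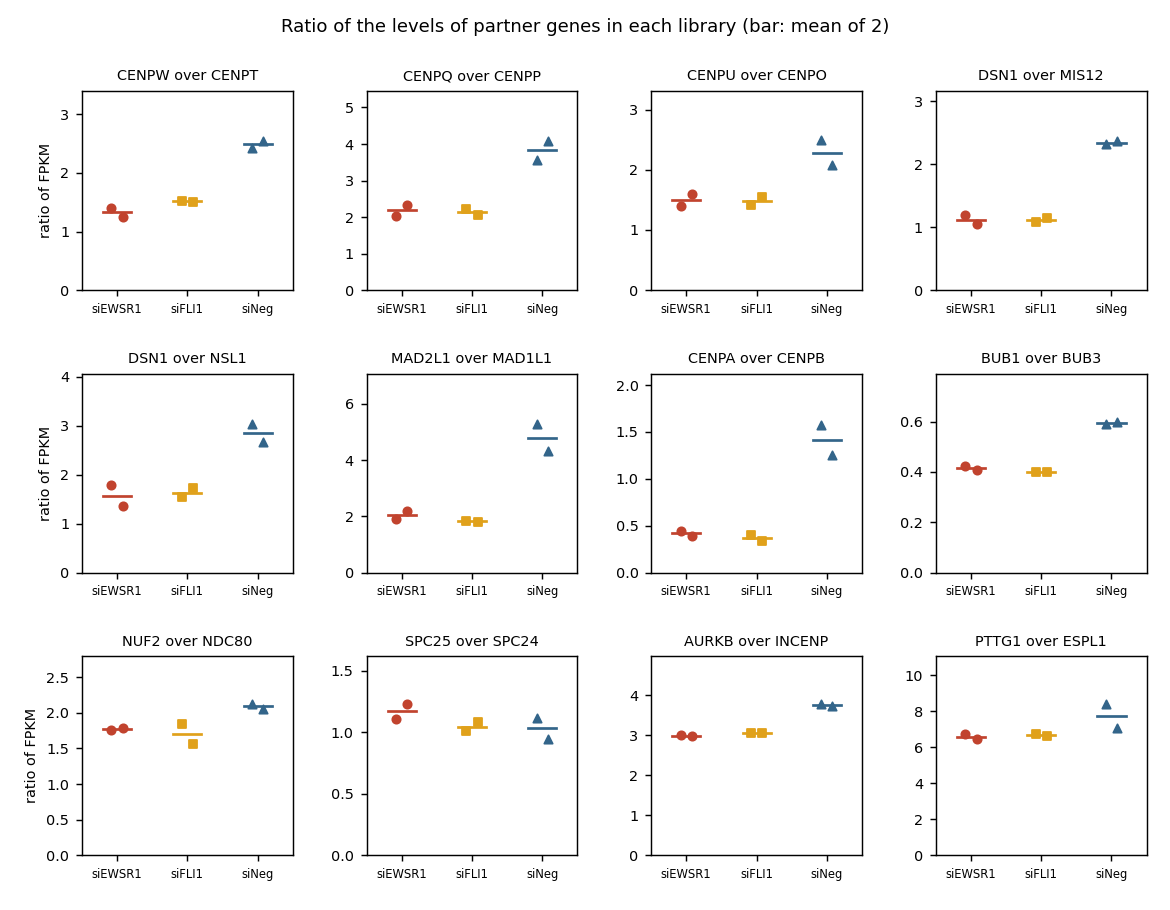
Ratio of the FPKM of partner genes in each library, 1 panel per pair, with siEWSR1 (circles), siFLI1 (squares) and siNeg (triangles), and bars at the mean of 2 libraries. The axes start at 0. MAD2L1 over MAD1L1 lies at 1.82 to 2.21 in the 4 libraries with an siRNA against a fusion partner and at 4.32 and 5.27 with siNeg, while SPC25 over SPC24 overlaps between groups.

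The siRNAs were compared with each other in the same fit. None of the 49 genes differed between siEWSR1 and siFLI1 by limma at an adjusted p under 0.05, against 3.86% of all tested genes, and 1 did at an unadjusted p under 0.05. That gene was NEK2, with a log2 difference of 0.26 ± 0.10 (siEWSR1 minus siFLI1, adjusted p = 0.175) and no overlap between the groups. For 48 of the 49 the 95% interval of the difference lay within 0.5 of 0 on the log2 scale. The share of all tested genes was not taken for this limit or for the unadjusted p. With so small a share of all genes called, 0 of 49 does not set the members apart. The count over all genes, 504, ran from 88 to 825 over the alternative settings. Over all members the lowest bound was -0.62, for UBE2C, and the highest 0.49, for NEK2. The difference was negative for 20 members and positive for 29, with a median of 0.03 beside -0.03 over all tested genes.

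Replicates of a group were not equally low. In the siEWSR1 group 46 of the 49 members were lower in replicate 2, with a median log2 difference of -0.25 (replicate 2 minus 1), while that of all tested genes was -0.03. In the siFLI1 group 40 members were lower in replicate 2 (median -0.07; all genes 0.03), and in the siNeg group 37 (median -0.08; all genes -0.01). The share of all tested genes that were lower in replicate 2 was not taken, so these counts stand without it. By the medians, the members move together between the siEWSR1 libraries, so their counts are not independent. Without siEWSR1 replicate 2, 29 members were at least 2-fold lower with siEWSR1, and without siEWSR1 replicate 1, 39.

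The rest of the division machinery was read from 8 other lists, with all listed genes tested. The list counts stand beside these shares of all tested genes. With siEWSR1, 31% were lower and 33.2% higher, and with siFLI1, 29.6% were lower and 35.7% higher. With either siRNA 4.59% were at least 2-fold lower. Of 25 other kinetochore and checkpoint genes, 20 were lower with siEWSR1 and 20 with siFLI1, with median log2 changes of -0.68 (siEWSR1) and -0.64 (siFLI1). The lowest was KIF2C, a microtubule-depolymerising kinesin (MCAK), at 35.8 and 28.7 FPKM with siEWSR1 and 34.2 and 30.5 FPKM with siFLI1, against 131.1 and 130.1 FPKM with siNeg. Its log2 changes were -2.01 ± 0.11 with siEWSR1 (adjusted p = 2.51e-05) and -1.998 ± 0.11 with siFLI1 (adjusted p = 2.06e-05). The highest was STRA13 (CENP-X), at a log2 change of 0.23 ± 0.10 with siEWSR1 (adjusted p = 0.0846) and 0.25 ± 0.10 with siFLI1 (adjusted p = 0.0627). ZW10 alone was higher with siEWSR1, at a log2 change of 0.16 ± 0.06 (adjusted p = 0.0389). That call of ZW10 was lost without any 1 of the 6 libraries. It was also lost with the replicate block (adjusted p = 0.0657), with median-centred libraries (0.0546) and with only the 2 groups compared (0.0557).

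Of 17 genes of the anaphase-promoting complex and its partners, 11 were lower and 1 higher with siEWSR1, and 9 lower and none higher with siFLI1, with median log2 changes of -0.39 (siEWSR1) and -0.24 (siFLI1). UBE2S, the chain-elongating enzyme, stood at 17.4 and 7.74 FPKM with siEWSR1 and 15.5 and 13.5 FPKM with siFLI1, against 26.0 and 31.6 FPKM with siNeg. Its siEWSR1 libraries lay far apart, and its log2 change was -1.27 ± 0.33 with siEWSR1 (adjusted p = 0.0143) and -0.96 ± 0.33 with siFLI1 (adjusted p = 0.0392). Without siEWSR1 replicate 2 its siEWSR1 change was -0.71 (adjusted p = 0.00591), and without siEWSR1 replicate 1 it was -1.82 (adjusted p = 0.000144). The siEWSR1 call of UBE2S was lost without siNeg replicate 2, and the siFLI1 call without either siNeg or either siFLI1 library. Both calls were lost with no filter on low values (adjusted p = 0.0574 with siEWSR1 and 0.113 with siFLI1). The same held with a robust variance trend (0.0787 with siEWSR1 and 0.141 with siFLI1). After quantile normalization the siFLI1 call was lost as well (0.0518). ANAPC2, the cullin subunit, was the highest, at a log2 change of 0.26 ± 0.09 with siEWSR1 (adjusted p = 0.0411) and 0.17 ± 0.09 with siFLI1 (adjusted p = 0.128). The siEWSR1 call of ANAPC2 was lost without siNeg replicate 1, siEWSR1 replicate 1 or either siFLI1 library, and with the replicate block (adjusted p = 0.0565). It was also lost with no filter on low values (0.0862), no variance trend (0.0547) and only the 2 groups compared (0.0691). The small subunit gene ANAPC13 stood at 10.6 and 10.3 FPKM with siEWSR1 and 19.1 and 20.4 FPKM with siFLI1, against 18.5 and 16.5 FPKM with siNeg. It was the 1 gene of the list that differed between the siRNAs, at a log2 difference of -0.89 ± 0.07 (siEWSR1 minus siFLI1, adjusted p = 0.0059), and was chosen after its values were seen.

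Of 11 mitotic entry genes, 10 were lower with either siRNA, 7 at least 2-fold, with median log2 changes of -1.12 (siEWSR1) and -1.10 (siFLI1). CDK1, the mitotic kinase, stood at 45.0 and 40.1 FPKM with siEWSR1 and 42.7 and 41.0 FPKM with siFLI1, against 131.7 and 120.0 FPKM with siNeg. CCNB1, its cyclin, stood at 84.4 and 72.2 FPKM with siEWSR1 and 83.3 and 77.1 FPKM with siFLI1, against 175.9 and 165.5 FPKM with siNeg. The phosphatase gene CDC25C was the lowest, at a log2 change of -1.62 ± 0.11 with siEWSR1 (adjusted p = 5.95e-05) and -1.74 ± 0.11 with siFLI1 (adjusted p = 3.83e-05). CDC25A, a phosphatase that also acts at the start of S phase, was the exception, at a log2 change of 0.12 ± 0.08 with siEWSR1 (adjusted p = 0.193) and 0.13 ± 0.08 with siFLI1 (adjusted p = 0.16).

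Among 19 regulators of G2/M transcription, 11 were lower with either siRNA, with median log2 changes of -0.50 (siEWSR1) and -0.57 (siFLI1). Higher were 4 with siEWSR1, beside 33.2% of all tested genes, and 3 with siFLI1, beside 35.7%. FOXM1, an activator of G2/M genes, stood at 29.2 and 25.1 FPKM with siEWSR1 and 25.6 and 24.9 FPKM with siFLI1, against 47.2 and 47.4 FPKM with siNeg, and changed on the log2 scale by -0.79 ± 0.08 with siEWSR1 (adjusted p = 0.000234) and -0.89 ± 0.08 with siFLI1 (adjusted p = 0.000127). MYBL2, which joins the MuvB core to activate them, fell, at a log2 change of -0.68 with siEWSR1 and -0.83 with siFLI1, and E2F8, a repressor, at -0.89 with siEWSR1 and -0.87 with siFLI1. CDKN1A, the CDK inhibitor p21, stood at 43.3 and 44.9 FPKM with siEWSR1 and 75.03 and 83.7 FPKM with siFLI1, against 5.02 and 5.24 FPKM with siNeg. It rose with either siRNA, at a log2 change of 2.99 ± 0.07 with siEWSR1 (adjusted p = 2.09e-06) and 3.83 ± 0.07 with siFLI1 (adjusted p = 8.77e-07), and was the 1 gene of this list that differed between the siRNAs (log2 difference -0.84 ± 0.07, siEWSR1 minus siFLI1, adjusted p = 0.00554). E2F4, a subunit of the repressive DREAM complex, rose, at a log2 change of 0.66 ± 0.06 with siEWSR1 (adjusted p = 0.000158) and 0.73 ± 0.06 with siFLI1 (adjusted p = 9.34e-05), and its partner TFDP2 at 0.50 with siEWSR1 and 0.36 with siFLI1. RB1 rose with siEWSR1 (log2 change 0.30 ± 0.09, adjusted p = 0.0252) and stood at 0.22 ± 0.09 with siFLI1 (adjusted p = 0.0715). The siEWSR1 call of RB1 was lost without either siNeg library or siEWSR1 replicate 2, and with no filter on low values (adjusted p = 0.059). Its siFLI1 change passed the threshold without siFLI1 replicate 1.

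All 8 condensin genes were lower with either siRNA, with median log2 changes of -0.77 (siEWSR1) and -0.87 (siFLI1), led by NCAPG at -1.40 with siEWSR1 and -1.46 with siFLI1. Of 10 cohesin genes, 6 were lower with siEWSR1 and 7 with siFLI1, none at least 2-fold, with median log2 changes of -0.27 (siEWSR1) and -0.31 (siFLI1), and the lowest was CDCA5 (sororin) at -0.83 with siEWSR1 and -0.87 with siFLI1. Of 13 gamma-tubulin and centriole genes, 10 were lower and 1 higher with either siRNA, with median log2 changes of -0.49 (siEWSR1) and -0.44 (siFLI1), with CEP152 at -1.40 with siEWSR1 and -1.60 with siFLI1 and TUBGCP6 at 0.33 with siEWSR1 and 0.22 with siFLI1. The siFLI1 call of TUBGCP6 was lost without either siNeg library or siFLI1 replicate 1. It was also lost after quantile normalization (adjusted p = 0.0626) and with median-centred libraries (0.0663). Of 37 replication genes, 30 were lower with siEWSR1 and 29 with siFLI1 and none higher, with median log2 changes of -0.61 (siEWSR1) and -0.59 (siFLI1), and CDT1, the licensing factor, was the lowest at -1.43 with siEWSR1 and -1.28 with siFLI1. The median of each list lay nearer to 0 than that of the 49 members with the same siRNA, a difference that was not tested.

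**Figure D5:**
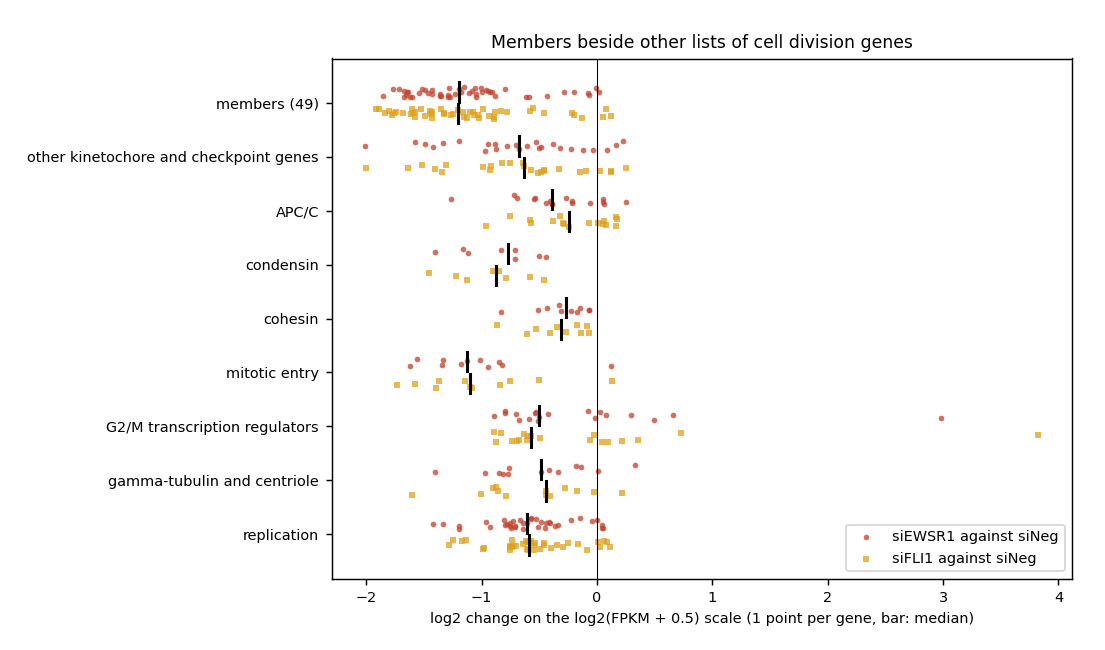
Log2 change against siNeg of each gene of the 49 members and of 8 other lists, with siEWSR1 (circles) above siFLI1 (squares) in each row, and bars at the medians. The members' medians lie at -1.20 (siEWSR1) and -1.21 (siFLI1), those of mitotic entry at -1.12 (siEWSR1) and -1.10 (siFLI1), and the points far to the right are CDKN1A.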

How the data were processed

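RNA-seq of 6 TC32 libraries, 2 per group, was analysed from the gene-level FPKM values deposited by the authors. The submitters' processing notes name TopHat2 2.0.13, Cufflinks, Cuffdiff and hg19. For the annotation, strand setting and library kit, the sources used here give nothing. Each FPKM depends on its library's total, so abundant RNAs can shift all other values. Gene starts are given counted from 1.

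Genes with at least 1 FPKM in at least 2 of the 6 libraries (13043) entered limma 3.58.1 (R 4.3.3) as log2(FPKM + 0.5), in 1 fit over all libraries with 3 residual and 3.39 prior degrees of freedom and variances that follow the mean level. P-values are two-sided and adjusted over all tested genes (Benjamini-Hochberg, threshold 0.05). Errors are standard errors of the fit, and folds of low genes are understated. The fit was tested on simulated data. Alternatives were the pseudocount, the filter, the scaling, the variance model, the replicate block and leaving out each library.

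The members, lists, markers and motifs were chosen with earlier results of these data known. Values per library are given for the lowest and highest change in each role group, for members not past the threshold with either siRNA, and for EWSR1 and FLI1; of each other list the lowest and highest change are named, and more of the mitotic entry and G2/M lists. List genes ZW10 and ANAPC13 were named after their values were seen. Promoter sequences are from RefSeq (GRCh38.p14) and matched by symbol; no coordinates were moved between builds.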

Additional observations from a re-analysis of the deposited data

How the results depend on the processing

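Over 17 alternatives, 41 to 44 members were lower with siEWSR1 and 41 to 45 with siFLI1, none was higher with either and none differed between the siRNAs. With a mean FPKM of at least 5, only 46 members were tested. Leaving out 1 library at a time gave 42 to 44 lower members with siEWSR1 and 42 to 43 with siFLI1, and 29 to 39 (siEWSR1) and 32 to 34 (siFLI1) that were at least 2-fold lower. The 42 log2 changes of members with values per library were refitted 710 times in all; 703 of these refits stayed on their side of the threshold, 4 lost the call and 3 gained it. The sign changed in 7 refits, all of values not past the threshold: CENPB with siEWSR1 was -0.009 with median-centred libraries and -0.064 to 0.1 with 1 library left out, MIS12 with siEWSR1 -0.046 to 0.029 with 1 library left out and with siFLI1 -0.002 with median-centred libraries, and MAD1L1 with siFLI1 -0.001 after quantile normalization. Of the other members, CENPO lost its call without siNeg replicate 2 with either siRNA, and without replicate 2 of either siRNA in that comparison. CENPP with siFLI1 passed the threshold after quantile normalization (-0.47, adjusted p = 0.00453) and with median-centred libraries (-0.27, adjusted p = 0.0309), as did CENPT with median-centred libraries (-0.18, adjusted p = 0.0452); the cause was not tested.

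Over all tested genes, the count higher was 4331 with siEWSR1 and 4656 with siFLI1, but 2518 with siEWSR1 and 2787 with siFLI1 under the mean FPKM minimum of 5, where 8745 genes were tested. The 504 genes that differed between the siRNAs became 88 with no filter, 825 with a robust variance trend, 111 when only those groups were fitted, and 5 to 593 when 1 library was left out (5 without siFLI1 replicate 2).

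The labels do not say that replicate numbers pair the libraries. Deviations of same-numbered replicates correlated at -0.137 between siEWSR1 and siNeg, -0.053 between siFLI1 and siNeg, and 0.0689 between siEWSR1 and siFLI1. With the replicate block 44 members were lower with siEWSR1, 43 with siFLI1 and 0 differed between the siRNAs, and 319 genes in all did; crossing the siNeg numbers, chosen after seeing the data, gave 44, 43 and 0 as well. Depth limits CENPP most, with as few as 167 implied fragments in a library.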
